A study of Mus musculus with 16 samples.

Results

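The mitochondrial ribosomal protein genes were taken as the non-control probes whose name in the array files began with Mrpl or Mrps followed by a number and whose heart (Cy5) signal stood well above background on 4 or more of the 16 arrays. Of 125 probes and 75 genes with such a name, 105 probes and 74 genes met the rule, out of 41174 non-control probes in all and 14908 that reached the same signal. By name, 46 of the 74 genes code for proteins of the large subunit (Mrpl) and 28 for proteins of the small subunit (Mrps). Mrps18b was the one gene below the limit, with 3 probes of which the brightest was above background on 1 array. Of the 74 genes, 72 were above background on all 16 arrays, Mrps11 on 14 and Mrps27 on 5.

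The arrays measured heart ventricle from 129Sv mice that were wild-type or lacked the ubiquitin ligase and co-chaperone CHIP, labelled CHIP(-/-), whose gene is Stub1. Animals had either sham surgery or trans-aortic banding (TAB), a narrowing of the aorta that loads the left ventricle, and hearts were taken 1 week later, with 4 biological replicates in each of the 4 groups. From each heart 500 ng of RNA was labelled with Cy5 and hybridised against Cy3-labelled RNA pooled from whole neonatal mice of mixed 129Sv and C57BL/6 background, so each value is the log2 ratio of heart over that reference. The design asks how the ventricle responds to banding and how loss of CHIP changes that response; the age and sex of the mice, the number of animals behind a sample and the part of the gene removed are not given in the sources used here.

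Mitochondria keep their own ribosomes, which translate the few proteins encoded by mitochondrial DNA, all of them subunits of the respiratory chain and ATP synthase. The ribosomal RNAs come from mitochondrial DNA, whereas every protein of the ribosome is encoded in the nucleus, made by cytosolic ribosomes and imported. Many of these proteins descend from bacterial ribosomal proteins and others are found only in mitochondria, and inherited defects in several of them, among them MRPL3, MRPL44, MRPS14 and MRPS22, cause heart muscle disease in people. The heart ventricle is among the tissues richest in mitochondria.

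The start sites of these genes held some features, not used in the choice by name, more often than all start sites did. RefSeq promoter windows on GRCm38.p6, from 250 bases before to 50 bases after the start, were found for 65 of the 74 genes (71 windows). The palindrome bound by nuclear respiratory factor 1 (NRF1), searched on both strands as GCGC, any base and TGCGC in a row, was in 16.9% of these windows against 4.6% of all 32851 windows in the table. The letters CCGGAAG, the core recognised by ETS factors such as GABP, were in 32.4% against 8.86%, and AAGATGGCG, the YY1 motif, in 9.86% against 1.4%. The shorter motifs GGGCGG (SP1) and CCAAT were in 50.7% and 40.8%, against 35.7% and 37.4% of all windows. Member windows were also richer in G and C (median 58.7%, against 52.7%) and in C followed by G (median count 21, against 7). The shares were not compared with windows matched for base composition or for signal on the arrays. Another gene started in the opposite direction within 1000 bases in 36.6% of the member windows and in 11.3% of all windows. Below are the 150 bases before the start of 6 of the genes named in the results. They are Mrpl39, Mrpl9, Mrpl44 and Mrpl3, which fell with banding, Mrpl52, which rose, and Mrpl23, whose response differed between genotypes. They are given 5′ to 3′ on the gene's strand. Capitals mark matches to the NRF1 or ETS letters, which lie in the first 5 genes printed and in no part of the Mrpl23 window. The printed genes do not show how common these letters were. The windows of Mrps31, which fell, and Mrpl20, which rose, held neither. For Mrps28, Mrps35, Mrpl4 and Mrpl54, also named in the results, no window was found.
Mrpl39, chr16:84735245-84735394, minus strand: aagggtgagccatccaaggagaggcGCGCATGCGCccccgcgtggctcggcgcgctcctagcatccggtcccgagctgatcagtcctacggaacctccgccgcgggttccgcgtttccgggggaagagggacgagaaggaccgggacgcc
Mrpl9, chr3:94443186-94443335, plus strand: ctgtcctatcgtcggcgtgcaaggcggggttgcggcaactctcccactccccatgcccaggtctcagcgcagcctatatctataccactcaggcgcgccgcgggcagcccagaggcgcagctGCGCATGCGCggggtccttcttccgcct
Mrpl44, chr1:79775868-79776017, plus strand: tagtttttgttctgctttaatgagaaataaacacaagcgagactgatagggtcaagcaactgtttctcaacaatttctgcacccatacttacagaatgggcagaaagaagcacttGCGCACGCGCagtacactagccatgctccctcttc
Mrpl3, chr9:105053118-105053267, plus strand: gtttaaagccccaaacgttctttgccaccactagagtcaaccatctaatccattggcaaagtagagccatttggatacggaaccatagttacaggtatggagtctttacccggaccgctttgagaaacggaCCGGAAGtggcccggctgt
Mrpl52, chr14:54426759-54426908, plus strand: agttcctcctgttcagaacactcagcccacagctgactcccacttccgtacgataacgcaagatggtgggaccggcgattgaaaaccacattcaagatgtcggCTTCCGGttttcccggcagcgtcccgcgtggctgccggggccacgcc
Mrpl23, chr7:142532882-142533031, plus strand: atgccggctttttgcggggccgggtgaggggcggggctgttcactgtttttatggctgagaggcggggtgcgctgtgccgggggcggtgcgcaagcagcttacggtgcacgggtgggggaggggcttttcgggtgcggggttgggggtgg
The 41 bases between the starts of Mrpl46 and Mrps11, a large and a small subunit gene that run in opposite directions, are also shown. They were chosen because Mrpl46 fell with TAB and Mrps11 was not called. These bases hold none of the NRF1, ETS or YY1 letters.
Mrpl46 and Mrps11, chr7:78783090-78783130, plus strand: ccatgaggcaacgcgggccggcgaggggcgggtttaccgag

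The quality of the arrays bears on every comparison. Of all non-control spots, 27.0% to 37.7% gave a heart signal well above background, and arrays of 1 group correlated at 0.956 to 0.982 over 11058 features. The share of spots was lower on average after TAB. It was 34.4% to 37.7% in wild-type and 32.8% to 35.5% in CHIP(-/-) sham hearts. After TAB it was 27.0% to 35.2% in wild-type and 29.2% to 33.2% in CHIP(-/-) hearts. Of the member probes 92.4% to 100% were above background, with group means of 99.25% in wild-type sham and 98.3% in CHIP(-/-) sham hearts. After TAB these means were 95.95% and 94.5%. The share of member probes follows in part from their choice by this same signal on 4 or more arrays. Stub1, the gene of CHIP, was lower in CHIP(-/-) than in wild-type hearts by 1.70 on the log2 scale after sham (SE 0.10, adjusted p = 2.1e-10) and by 1.33 after TAB (adjusted p = 2.9e-08), with no overlap. Each of the 4 slides carried the arrays of 1 group, and an effect of the slide cannot be told apart from one of the group. The atrial myosin gene Myl7 was high on 3 sham arrays (wild-type replicates 1 and 3, CHIP(-/-) replicate 1), and Y-linked transcripts were above background on 3 other sham arrays (wild-type replicate 4, CHIP(-/-) replicates 2 and 4) and on none of the banded ones.

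Relative to the whole-body reference, the genes were mostly higher in heart. In wild-type sham hearts the group mean log2 ratio was above 0 for 71 of the 74 genes (95.9%), against 52.4% of all features. Their median log2 ratio was 0.71, 1.64-fold over the reference, with a range from -0.05 for Mrps5 to 1.60 for Mrps36. Dyes were not swapped, so a dye bias of a probe is part of its ratio. A bias that is the same on every array cancels in the differences between groups that follow. Whether it was the same on every array was not tested.

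**Figure D1:**
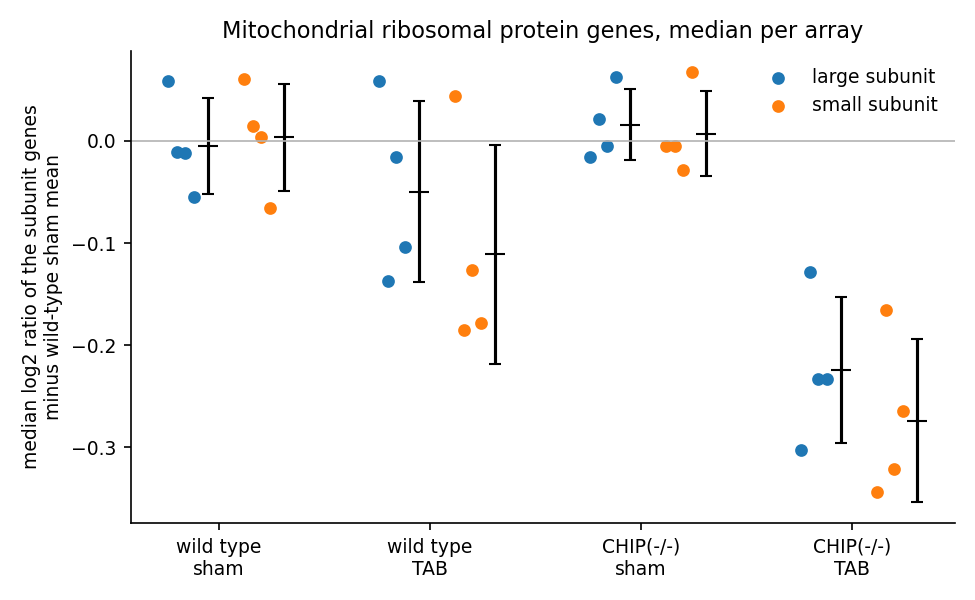
Median log2 ratio over the large subunit genes (46, blue) and small subunit genes (28, orange) on each of the 16 arrays, each gene taken relative to its mean in wild-type sham hearts. Bars give the mean and SD of 4 arrays; the sham arrays lie within -0.07 and 0.07, wild-type TAB arrays between -0.19 and 0.06, and CHIP(-/-) TAB arrays between -0.34 and -0.13.

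The first comparison was TAB against sham in wild-type hearts. Of the 74 genes, 20 fell (27.0%, where 17.0% of all 11058 features fell) and 7 rose (9.46%, against 18.7% of all features). The 4 TAB and 4 sham arrays did not overlap for 15 genes that were lower and 6 that were higher, against 15.2% and 16.5% of all features. The median difference over the 74 genes was -0.07 on the log2 scale, next to 0.00 over all features, and 50 genes were below 0. On single arrays the median of the 74 genes, relative to wild-type sham, was 0.05, -0.15, -0.04 and -0.15 after TAB and -0.06 to 0.06 after sham, so that the groups overlapped. The excess of falls over the share of all features was smaller without wild-type TAB replicate 4, where 13 genes fell (17.6%, against 14.6% of all features). It was not kept without the 3 sham arrays with high Myl7, 2 of them wild-type, where 7 fell (9.46%, against 10.4%) and 4 rose. In whole-ventricle RNA, fewer cells of a type and less RNA per cell cannot be told apart, and this holds for every comparison here.

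The wild-type falls were led by large subunit genes. Mrpl39, a protein found only in mitochondrial ribosomes, read 1.18, 1.19, 1.30 and 1.22 on the sham arrays and 0.71, 0.65, 0.78 and 0.52 on the TAB arrays. Every TAB heart was below every sham heart, a difference of -0.56 (SE 0.07, adjusted p = 1.9e-06) or 1.47-fold. Mrpl9, the counterpart of bacterial L9, read 0.32, 0.21, 0.42 and 0.34 after sham and -0.07, -0.21, -0.09 and -0.40 after TAB. Again the groups did not overlap, and the difference was -0.51 (SE 0.09, adjusted p = 7.3e-05). Mrpl4, the counterpart of bacterial L4, which reaches into the nascent peptide's exit tunnel, differed by -0.41 (adjusted p = 0.00032) and Mrpl46 by -0.39 (adjusted p = 0.0047). Among small subunit genes Mrps23 differed by -0.34 (adjusted p = 0.0036) and Mrps31 by -0.34 (adjusted p = 0.002). Mrpl37 (-0.31, adjusted p = 0.049) lay close to the threshold and lost its call on leaving out any of 6 of the 8 arrays (-0.23 to -0.33 in those fits). Mrps27, counted among the 20 falls at an adjusted p of 0.046, was well above background on 3 of 4 sham and 0 of 4 TAB arrays. It passed the signal filter through sham arrays alone, so its difference is not exact. Its mean log2 heart signal was 6.62 after sham and 6.32 after TAB, 1.23-fold lower (after quantile scaling of array brightness, and open to dye bias). In CHIP(-/-) hearts, where 2 of 4 sham and 0 of 4 TAB arrays were above background, these means were 6.27 and 6.30. The wild-type call was lost on leaving out any of 7 of the 8 arrays.

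A few genes rose instead. Mrpl20, the counterpart of bacterial L20, which binds ribosomal RNA, read 0.42, 0.34, 0.28 and 0.36 after sham and 0.82, 0.64, 0.79 and 0.77 after TAB. The groups were apart by 0.40 (SE 0.06, adjusted p = 1.1e-05), though only 0.02 with arrays centred on their median in place of loess. Mrpl52, one of the mitochondria-specific proteins, read 0.20, 0.07, 0.21 and 0.15 after sham and 0.56, 0.38, 0.61 and 0.47 after TAB. These groups were apart as well, by 0.35 (SE 0.06, adjusted p = 0.00015), and by 0.01 with median centring. Mrpl54 rose by 0.26 (adjusted p = 0.0013), Mrpl33 by 0.21 (0.0086), Mrpl17 by 0.21 (0.013), Mrps16 by 0.20 (0.014) and Mrpl23 by 0.15 (0.047), and with median centring all 5 turned negative (-0.07, -0.25, -0.05, -0.22 and -0.23). Mrps16 was not called without wild-type TAB replicate 1 (0.15, adjusted p = 0.058), and Mrpl23 was not called without any one of 6 of the 8 arrays (0.11 to 0.17).

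The scaling matters for direction because median centring moved the median of all features to -0.19 in wild type and -0.22 in CHIP(-/-) hearts after TAB, where loess gave 0.00 and -0.01. It also moved the share of all called features that were higher from 52.3% to 8.71% in wild type and from 50.9% to 12.2% in CHIP(-/-) hearts. Relative to that shift, the members' median was lower than that of all features by either scaling: -0.07 with loess and -0.17 with median centring in wild type, and -0.25 and -0.37 in CHIP(-/-) hearts. Relative to it, Mrpl20, Mrpl52, Mrpl54 and Mrpl17 lay 0.21, 0.20, 0.12 and 0.14 above the median feature in wild type with median centring, while Mrpl33, Mrps16 and Mrpl23 stood at -0.06, -0.03 and -0.045 from it.

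The second comparison was TAB against sham in CHIP(-/-) hearts, where the falls were more numerous. Of the 74 genes 44 fell (59.5%, against 23.2% of all features) and 4 rose (5.41%, against 24.0%). TAB and sham arrays did not overlap for 38 genes that were lower and 4 that were higher (20.7% and 21.8% of all features). The median difference was -0.26, next to -0.01 over all features, and 67 of 74 genes were below 0. The array medians after TAB were -0.31, -0.15, -0.26 and -0.24, all below the lowest of the 4 CHIP(-/-) sham arrays (-0.01). Leaving out any one array gave 40 to 45 falls.

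The falls reached both subunits. Mrps31, a small subunit protein with no bacterial counterpart, read 0.96, 0.83, 0.86 and 0.94 after sham and 0.09, 0.44, 0.15 and 0.14 after TAB. All 4 TAB hearts were below all sham hearts, by -0.69 (SE 0.08, adjusted p = 2.5e-07) or 1.61-fold. Mrps35, another mitochondria-specific protein, went from 1.15, 1.13, 1.14 and 1.27 to 0.30, 0.73, 0.47 and 0.55, a difference of -0.66 (SE 0.09, adjusted p = 1.3e-06). Its banded hearts ranged from 0.30 to 0.73, all below every sham heart. Mrps9, the counterpart of bacterial S9, read 1.09, 0.93, 0.97 and 0.98 after sham and 0.48, 0.51, 0.24 and 0.49 after TAB (-0.56, SE 0.07, adjusted p = 7e-07). Mrps28 fell by 0.52 on the log2 scale, and is described with the genotype differences.

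In the large subunit, Mrpl39 read 1.29, 1.26, 1.32 and 1.33 after sham and 0.54, 0.78, 0.71 and 0.48 after TAB (-0.67, SE 0.07, adjusted p = 4.7e-08), a fall also seen in wild type. Mrpl3, the counterpart of bacterial L3 near the peptidyl transferase centre, read 0.55, 0.53, 0.53 and 0.57 after sham and -0.19, 0.11, -0.31 and 0.05 after TAB. The sham hearts were close together and the TAB hearts spread out below them, with a difference of -0.63 (SE 0.08, adjusted p = 5.2e-07). Mrpl44, whose fold resembles ribonuclease III, read 1.40, 1.29, 1.31 and 1.31 after sham and 0.70, 0.78, 0.74 and 0.74 after TAB. Its banded hearts lay close together, below every sham heart, and the difference was -0.59 (SE 0.06, adjusted p = 6.2e-08) or 1.5-fold. Mrpl4 differed by -0.50 (adjusted p = 2.1e-05). These 8 largest falls were called in each of the 21 alternative fits of this comparison.

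Of the 4 genes that rose, 3 had also risen in wild type. Mrpl52 (0.26, SE 0.06, adjusted p = 0.0018), Mrpl20 (0.25, SE 0.06, adjusted p = 0.0011) and Mrpl54 (0.22, SE 0.06, adjusted p = 0.0043) rose in both genotypes, in 20 of 21 alternative fits of each, among them the median-centred deposited processed log ratios and the authors' series table. With median centring in place of loess they stood at -0.16, -0.22 and -0.19 in CHIP(-/-) hearts, within 0.06 of the median feature. Mrps34 rose by 0.15 (adjusted p = 0.046), stood at -0.33 with median centring, and was not called without any one of 6 of the 8 arrays (0.12 to 0.16). The wild-type and CHIP(-/-) comparisons share no arrays, but both take their error from the same fit of all arrays and so are not independent tests. The share of all features that fell, or rose, in both comparisons was not counted. The overlap between them therefore has no background to be judged against. The 17 genes that fell in both, which are 17 of the 20 wild-type falls and 17 of the 44 in CHIP(-/-) hearts, were Mrpl2, Mrpl3, Mrpl4, Mrpl9, Mrpl22, Mrpl37, Mrpl38, Mrpl39, Mrpl44, Mrpl46, Mrps5, Mrps7, Mrps9, Mrps23, Mrps26, Mrps31 and Mrps35. Mrpl10 (-0.30 in wild type against -0.04) and Mrps6 (-0.19 against -0.04) were called in wild type alone, with adjusted p of 0.23 and 0.43 for the difference of the responses, and so was the dim Mrps27. Mrpl10 binds the L12 proteins that form the ribosome's stalk, and the stalk protein Mrpl12 was not called in either genotype (0.03 and -0.13).

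**Figure D2:**
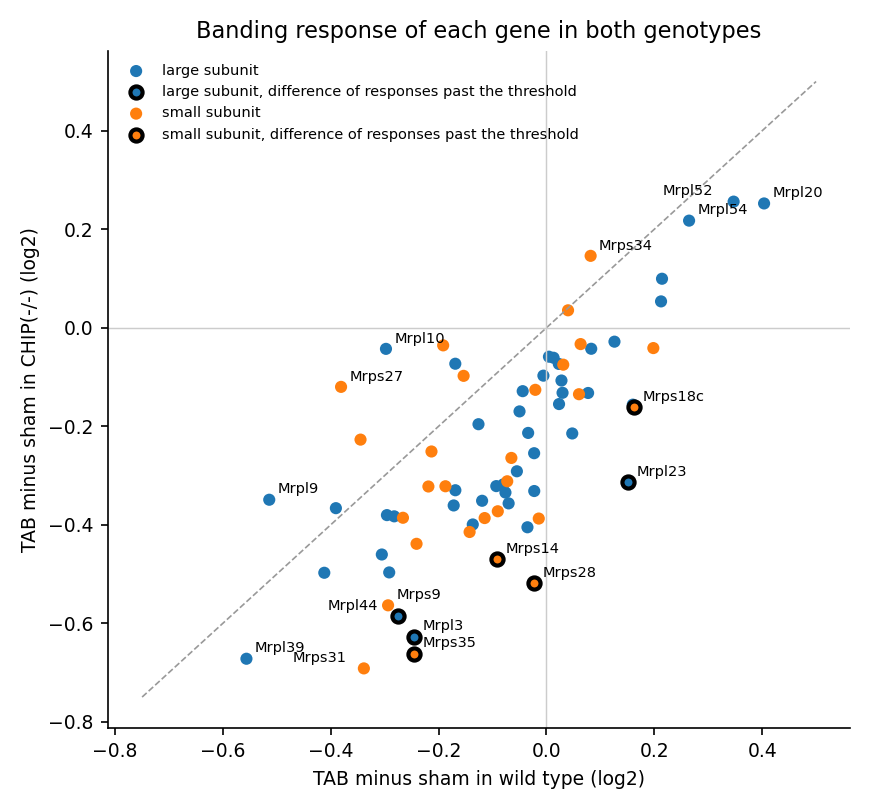
TAB minus sham difference (log2, loess) of each of the 74 genes in wild type (horizontal) and CHIP(-/-) hearts (vertical), coloured by subunit, with a black rim on the 7 genes whose responses differed past the threshold and a dashed line of equal response. 65 of 74 genes lie below the line; Mrpl20, Mrpl52 and Mrpl54 at the upper right were called in 20 of 21 alternative fits in each genotype, the exception being median centring in place of loess, where they stood between -0.22 and 0.02. Mrps27 was not well above background on any banded array, so its place shows no exact difference.

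The third comparison, CHIP(-/-) against wild type after sham, gave no call by limma: 0 of 74 genes in either direction, where 0.0181% of all features were called higher and 0.0181% lower. At an unadjusted p under 0.05, 1 gene was higher and 3 were lower. The median difference was 0.02 with 32 genes below 0, and the differences ran from -0.35 (Mrps27, above background on 3 wild-type and 2 CHIP(-/-) sham arrays) to 0.16 (Mrps30). The groups did not overlap for 4 genes that were higher and 2 that were lower (2.27% and 3.09% of all features). In sham-operated hearts, then, no genotype difference in these genes was detectable with 4 hearts a group, where the median SE of a difference was 0.07.

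The fourth comparison, CHIP(-/-) against wild type after TAB, shares its arrays with the banding comparisons. Of the 74 genes 24 were lower in CHIP(-/-) hearts (32.4%, against 6.29% of all features) and 0 higher (5.25% of all features); 18 lower genes had groups that did not overlap and 0 higher genes did (6.73% and 6.27%). The median difference was -0.17 against -0.01 over all features, and 67 genes were below 0. The count moved with single hearts: 5 genes were called without wild-type TAB replicate 1 (6.76%, against 4.13% of all features), 6 without CHIP(-/-) TAB replicate 1 (8.11%, against 4.40%), 9 without CHIP(-/-) TAB replicate 3 (12.2%, against 3.85%) and 11 without wild-type TAB replicate 3 (14.9%, against 4.8%). With median centring 0 genes were called by limma (12 lower and 0 higher at an unadjusted p under 0.05), at a median difference of -0.16. With loess the unadjusted counts were 38 lower and 0 higher. Wild-type TAB replicate 1 had the highest member median of the banded hearts (0.05) and CHIP(-/-) TAB replicate 1 the lowest (-0.31). Wild-type TAB replicate 1 was also the array with the smallest share of spots above background (27%). Whether its signal bears on the count was not tested.

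Mrps28, a small subunit protein related to bacterial S1, showed the largest of these differences. It read 1.16, 0.82, 1.05 and 0.85 in banded wild-type hearts and 0.43, 0.82, 0.47 and 0.53 in banded CHIP(-/-) hearts, a difference of -0.41 (SE 0.08, adjusted p = 0.0016). The groups did not overlap, though the highest CHIP(-/-) heart lay just under the lowest wild-type one. Mrpl23, the counterpart of bacterial L23 at the exit of the peptide tunnel, read 0.65, 0.44, 0.52 and 0.49 in wild-type hearts and 0.08, 0.21, 0.16 and 0.21 in CHIP(-/-) hearts. Its groups did not overlap, and differed by -0.36 (SE 0.06, adjusted p = 0.00028). Mrps12, the counterpart of the S12 protein of the decoding centre, read 0.41, 0.13, 0.24 and 0.31 against -0.04, -0.01, -0.09 and -0.04, again without overlap (-0.32, SE 0.08, adjusted p = 0.0099). Mrps28, Mrpl23 and Mrps12 were called in 18 of 19 alternative fits, the exception being median centring (-0.42, -0.38 and -0.28). Mrpl1 (-0.34, adjusted p = 0.024), Mrps35 (-0.33, 0.015), Mrpl3 (-0.29, 0.013), Mrps14 (-0.29, 0.015) and Mrps31 (-0.28, 0.022) were also lower, and each lost its call on leaving out wild-type TAB replicate 1 (-0.25, -0.28, -0.24, -0.25 and -0.24). They also lost it without CHIP(-/-) TAB replicate 1 (-0.29, -0.26, -0.26, -0.23 and -0.24), Mrps35, Mrps14 and Mrps31 without wild-type TAB replicate 3 (-0.29, -0.26 and -0.24), Mrpl1, Mrpl3 and Mrps31 without CHIP(-/-) TAB replicate 3 (-0.28, -0.22 and -0.27), and Mrps31 without CHIP(-/-) TAB replicate 4 (-0.26).

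The fifth comparison was the difference between the responses to TAB, CHIP(-/-) minus wild type, which draws on all 16 arrays. A lower response in CHIP(-/-) hearts was found for 7 of the 74 genes (9.46%, where 2.60% of all features had one), and 0 had a higher one, where 2.83% did. The median was -0.16 against 0.00 over all features, and 65 genes were below 0. At an unadjusted p under 0.05, 28 genes had a lower and 1 a higher response. For Mrpl23 the response was -0.46 lower (SE 0.08, adjusted p = 0.0023): its sham hearts read 0.44, 0.40, 0.42 and 0.24 in wild type and 0.48, 0.45, 0.52 and 0.46 in CHIP(-/-). Against these, the banded wild-type hearts given above were higher by 0.15 and the banded CHIP(-/-) hearts lower by 0.31 (adjusted p = 0.00012), and with median centring the wild-type difference was -0.23 and the difference of responses -0.56 (adjusted p = 0.19). For Mrps28 the response was -0.50 lower (SE 0.11, adjusted p = 0.013): sham hearts read 1.02, 1.02, 1.05 and 0.88 in wild type and 1.05, 1.13, 1.03 and 1.12 in CHIP(-/-). Banding left it at -0.02 (adjusted p = 0.85) in wild type and at -0.52 (SE 0.08, adjusted p = 1.4e-05) in CHIP(-/-) hearts.

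The other 5 genes were Mrps35 (-0.42, SE 0.12, adjusted p = 0.047), Mrpl3 (-0.38, SE 0.11, 0.042), Mrps14 (-0.38, SE 0.11, 0.043), Mrps18c (-0.32, SE 0.09, 0.043) and Mrpl44 (-0.31, SE 0.09, 0.04). They lay just inside the threshold: each was called in 6 to 11 of 28 alternative fits, against 27 for Mrpl23 and 26 for Mrps28. Omitting any one array gave 2 to 13 genes, with 13 without CHIP(-/-) TAB replicate 2, 11 without wild-type TAB replicate 4, and 2 or 3 without wild-type sham replicates 2, 3 or 4, any CHIP(-/-) sham replicate, wild-type TAB replicates 1 or 3, or CHIP(-/-) TAB replicates 1 or 3. Mrps14, the counterpart of bacterial S14, read 1.24, 1.24, 1.19 and 1.24 in wild-type sham hearts and 1.26, 0.98, 1.23 and 1.06 in banded ones. In CHIP(-/-) hearts it went from 1.41, 1.21, 1.37 and 1.26 to 0.66, 0.97, 0.82 and 0.93 (-0.47, adjusted p = 2.4e-05), so that wild-type groups overlapped and CHIP(-/-) groups did not. Mrps18c, a form of the S18 protein, differed by 0.16 in wild type (adjusted p = 0.056) and by -0.16 in CHIP(-/-) hearts (adjusted p = 0.047).

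**Figure D3:**
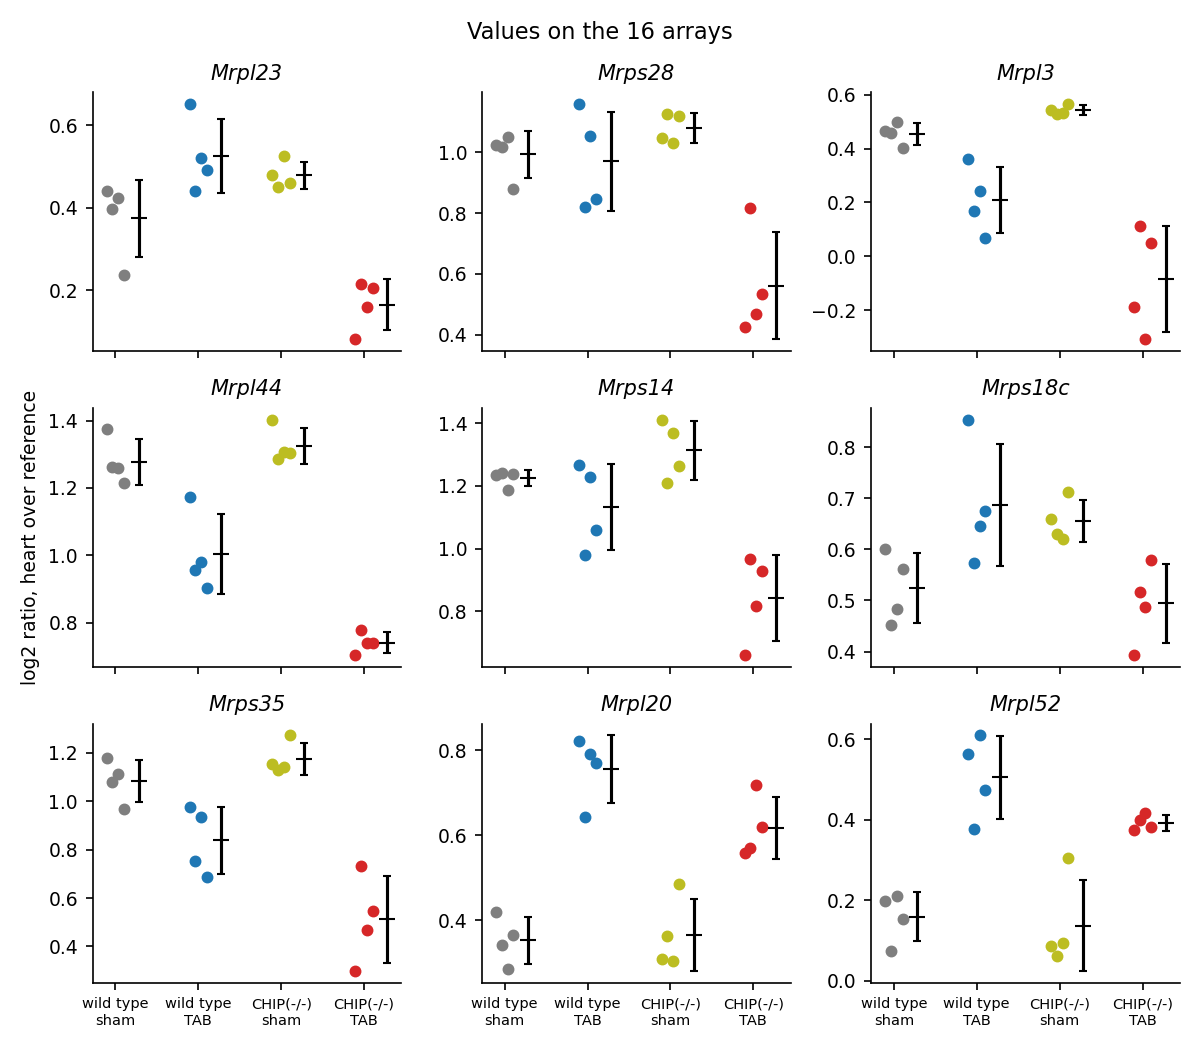
Log2 ratio of heart over reference (loess) on each of the 16 arrays for the 7 genes whose banding response differed between genotypes and for the risers Mrpl20 and Mrpl52, with the mean and SD of each group of 4 and a separate vertical scale for each gene. Mrpl23 lies between 0.44 and 0.65 in banded wild-type hearts and between 0.08 and 0.21 in banded CHIP(-/-) hearts; the rises of Mrpl20 and Mrpl52 stood at 0.02 and 0.01 in wild type, and -0.22 and -0.16 in CHIP(-/-) hearts, with median centring.

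The large and small subunit genes were then set side by side. In wild type 11 of 46 large and 9 of 28 small subunit genes fell with TAB (23.9% and 32.1%, against 17.0% of all features). Another 6 and 1 rose (13% and 3.57%, against 18.7%), and the medians were -0.05 and -0.10. In CHIP(-/-) hearts 26 of 46 and 18 of 28 fell (56.5% and 64.3%, against 23.2% of all features). Here 3 and 1 rose (6.52% and 3.57%, against 24.0%), and the medians were -0.23 and -0.29. After TAB, 15 large and 9 small subunit genes were lower in CHIP(-/-) than in wild-type hearts (medians -0.16 and -0.19). These were 32.6% and 32.1% of the genes, against 6.29% of all features. The lower response was found for 3 and 4 (6.52% and 14.3%, against 2.60%, medians -0.16 and -0.20). On single arrays the large minus small median was -0.03 to 0.01 in wild-type sham, -0.01 to 0.03 in CHIP(-/-) sham, 0.01 to 0.11 in wild-type TAB and 0.03 to 0.09 in CHIP(-/-) TAB hearts. The order of the subunits in CHIP(-/-) hearts turned with the scaling (-0.59 and -0.58 with median centring), with every probe taken on its own (-0.27 for both, at -0.2731 and -0.2672) and with the placing of 3 genes. Mrps30 and Mrps18a bear small subunit names but sit in the large subunit, and Mrps36 is a component of the alpha-ketoglutarate dehydrogenase complex. With these placed by structure (48 large, 25 small), the medians in CHIP(-/-) hearts were -0.27 for the large and -0.25 for the small subunit, and those of the difference of responses -0.16 and -0.13. The order was kept under that placing in wild type (-0.05 and -0.11) and in CHIP(-/-) against wild type after TAB (-0.15 and -0.19). With the genes placed by name, the order between genotypes after TAB turned with median centring (-0.1579 and -0.1523). It also turned without CHIP(-/-) TAB replicate 2 (-0.2047 and -0.2041).

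Genes with and without a bacterial counterpart both fell. In CHIP(-/-) hearts 25 of the 46 with a counterpart and 19 of the 28 without one fell with TAB, at medians of -0.20 and -0.29. These were 54.3% and 67.9% of the genes, against 23.2% of all features. After TAB, 17 of 46 and 7 of 28 were lower in CHIP(-/-) than in wild-type hearts (37% and 25%, against 6.29% of all features), at medians of -0.19 and -0.12. The differences among single genes were wider than their errors. The SD over the 74 differences was 0.19 in wild type and 0.21 in CHIP(-/-) hearts after TAB, next to a median SE of 0.07, whereas after sham the SD between genotypes was 0.09.

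Several genes were measured by more than 1 probe. Among 22 such genes, all probes had the same sign for 17 genes in wild type, 21 in CHIP(-/-) hearts and 20 in CHIP(-/-) against wild type after TAB, and no gene had probes called in opposite directions. The brightest probe did not always match the others in being called. For Mrpl49 it was not called (0.00 in wild type, -0.06 in CHIP(-/-) hearts), while its other probes fell in wild type (-0.31 and -0.27) and in CHIP(-/-) hearts (-0.49 and -0.27). For Mrpl1, CHIP(-/-) minus wild type after TAB was -0.34 for the brightest probe and -0.21 (adjusted p = 0.24) for the other. With every one of 104 probes fitted on its own, 62 fell and 3 rose in CHIP(-/-) hearts (22.7% and 21.3% of all probes), and 35 fell and 7 rose in wild type (17.1% and 16.3%). For Mrpl44 all 3 probes fell in both genotypes, but the difference of responses was -0.31 for the brightest and 0.04 and -0.03 for the others (adjusted p = 0.94 for both). For Mrpl3 the 3 probes gave -0.38 (adjusted p = 0.046), -0.28 (0.069) and -0.19 (0.55), and for Mrps18c both probes passed (-0.32, adjusted p = 0.049, and -0.39, adjusted p = 0.026).

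Genes with a divergent neighbour, as defined above by distance between starts, were set beside that neighbour. Whether such genes share a promoter was not tested. Mrpl46 fell with TAB in wild type (-0.39, adjusted p = 0.0047) and in CHIP(-/-) hearts (-0.37, adjusted p = 0.0053), whereas Mrps11, which starts beyond those 41 bases in the other direction, differed by 0.03 (adjusted p = 0.85) and -0.08 (adjusted p = 0.6). The difference between these 2 genes was not tested, and Mrps11 was above background on 14 of the 16 arrays. Of the 24 genes with a divergent neighbour, 14 had that neighbour measured, with Mrpl46 and Mrps11 entering from both sides. The neighbour fell in CHIP(-/-) hearts beside 4 of the 9 members that fell and beside 3 of the 5 that were not called, where 23.2% of all features fell. NRF1 letters were in 9 of the 44 windows (20.5%) of 39 genes that fell in CHIP(-/-) hearts. They were in 3 of the 27 windows (11.1%) of the 26 other members. ETS letters were in 14 and 9 windows (31.8% and 33.3%), and YY1 letters in 3 and 4 (6.82% and 14.8%). Some genes that fell, such as Mrpl48 and Mrpl2, entered with several windows. The differences between these shares were not tested.

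Other parts of the mitochondrial translation apparatus moved alongside. In CHIP(-/-) hearts 23.2% of all features fell with TAB and 24.0% rose, which is the background for the counts that follow. Of 7 mitochondrial ribosomal proteins known by other names, 5 fell with TAB in CHIP(-/-) hearts, led by Ptcd3 (-0.62, adjusted p = 6.1e-08) and the small subunit GTPase Dap3 (-0.32, adjusted p = 0.00028). Of 13 translation factors 10 fell and 0 rose (median -0.30), led by the elongation factors Gfm1 (-0.81, adjusted p = 6.2e-08) and Tufm (-0.52, adjusted p = 6.9e-07). Of 24 ribosome assembly factors 17 fell and 0 rose (median -0.34), led by Mtg1 (-0.62) and the RNA methyltransferase Nsun4 (-0.57). Of 15 aminoacyl-tRNA synthetases 8 fell and 1 rose, and of 18 genes of mitochondrial DNA transcription and RNA handling 13 fell and 0 rose, led by Lrpprc (-0.83, adjusted p = 7.6e-09). In wild type the last 4 lists had 6, 14, 6 and 9 falls (46.2%, 58.3%, 40% and 50% of their genes, against 17.0% of all features) at medians of -0.23, -0.25, -0.24 and -0.25, next to -0.07 for the ribosomal protein genes. Of the 7 ribosomal proteins with other names, 2 fell and 1 rose in wild type (28.6% and 14.3%, against 17.0% and 18.7% of all features), at a median of -0.01. Of 12 regulators of mitochondrial biogenesis, 6 fell and 1 rose in each genotype (50% and 8.33%), at medians of -0.22 in wild type and -0.29 in CHIP(-/-) hearts. Among them Ppargc1a, which codes for the coactivator PGC-1alpha, differed by -0.04 in wild type (adjusted p = 0.78) and -0.91 in CHIP(-/-) hearts (adjusted p = 3.9e-08). The list as a whole did not share this pattern. Over the 12 regulators the difference of responses had a median of 0.03, with 6 below 0. Of them 1 was called lower and 0 higher (8.33% and 0%, against 2.60% and 2.83% of all features). The lowest wild-type difference in the list was -0.89, in another gene.

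The respiratory chain and the cytosolic ribosome gave other patterns. Again 23.2% of all features fell with TAB in CHIP(-/-) hearts and 24.0% rose. Of 73 subunits of the respiratory chain and ATP synthase, 53 fell with TAB in CHIP(-/-) hearts (median -0.35, against -0.26 for the mitochondrial ribosome) and 15 fell and 14 rose in wild type (20.5% and 19.2%, against 17.0% and 18.7% of all features; median 0.05). With median centring 51 fell and 0 rose in wild type (median -0.41), where 36.4% of all features fell and 3.47% rose. In CHIP(-/-) hearts those shares of all features were 45.2% and 6.28%. After TAB 59 of the 73 were lower in CHIP(-/-) hearts (80.8%, against 6.29% of all features), where 24 of the 74 ribosomal protein genes were. With median centring 12 and 0 were, against 1.75% of all features. Of 75 cytosolic ribosomal protein genes, 69 rose with TAB in wild type and 68 in CHIP(-/-) hearts, at medians of 0.46 and 0.44. These were 92% and 90.7%, against 18.7% and 24.0% of all features. With median centring 0 rose and 2 fell in wild type, 2 rose and 11 fell in CHIP(-/-) hearts, and the medians were 0.01 and -0.15, which is 0.20 and 0.07 above the median of all features, whereas the mitochondrial genes stood at -0.17 and -0.37 from it. In both scalings the cytosolic median was above, and the mitochondrial median below, that of all features.

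**Figure D4:**
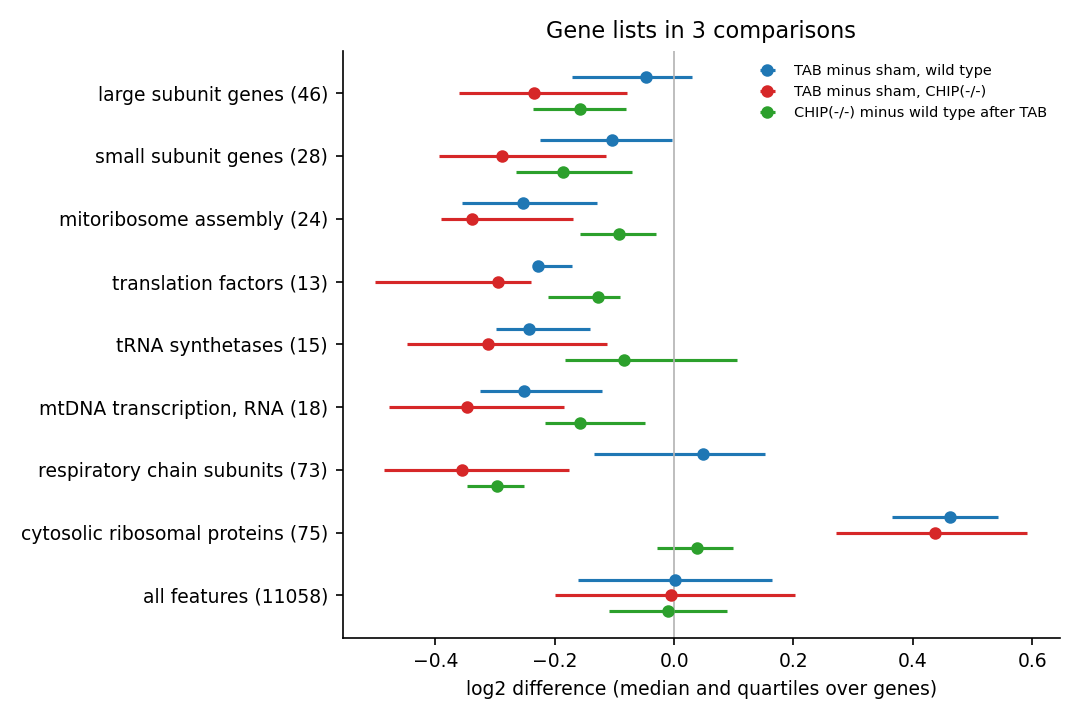
Median and quartiles over genes of the log2 difference (loess) for 3 comparisons in the large and small subunit genes, other lists of mitochondrial genes, cytosolic ribosomal proteins and all 11058 features, with the number of genes in brackets; the 3 comparisons share arrays. The mitochondrial lists lie below 0 in CHIP(-/-) hearts and the cytosolic ribosomal proteins above 0 (0.46 and 0.44); with median centring the latter stood at 0.01 and -0.15 and the respiratory chain in wild type at -0.41 in place of 0.05.

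Markers of the cell types in the ventricle moved in the same comparisons. Of all features, 17.0% fell and 18.7% rose with TAB in wild type, and 23.2% fell and 24.0% rose in CHIP(-/-) hearts. Of 6 cardiomyocyte markers measured, 4 fell with TAB and 0 rose in wild type (median -0.34), and 5 fell and 1, Tnnt2, rose in CHIP(-/-) hearts (median -0.60). Their array medians were -0.05 to 0.07 in wild-type sham, -0.11 to 0.04 in CHIP(-/-) sham, -0.41 to -0.12 in wild-type TAB and -0.81 to -0.51 in CHIP(-/-) TAB hearts. Of 8 fibroblast markers 5 and 6 rose, with array medians of 0.24 to 0.67 in wild-type TAB and 0.83 to 1.06 in CHIP(-/-) TAB hearts. Of 8 macrophage markers 5 and 8 rose (array medians 0.24 to 0.40 and 0.58 to 0.85). Of 6 endothelial markers 5 and 4 rose, of 6 smooth muscle and pericyte markers 6 and 5, and of 4 adipocyte markers 2 and 4. After TAB the median of CHIP(-/-) minus wild type was -0.30 for the cardiomyocyte, 0.36 for the fibroblast, 0.38 for the macrophage, -0.27 for the endothelial, -0.03 for the smooth muscle and -0.02 for the adipocyte markers. All these markers passed the same signal filter, and their part in the fall of the mitochondrial ribosomal protein genes was not tested. Without the 3 sham arrays with high Myl7, 42 genes fell with TAB in CHIP(-/-) hearts (56.8%, against 21.1% of all features). Without the 3 sham arrays with Y-linked transcripts, 35 fell in CHIP(-/-) hearts (47.3%, against 17.8%) and 18 in wild type (24.3%, against 15.6%).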

How the data were processed

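Per the file headers, Agilent Feature Extraction 9.1.3.1 produced the deposited intensity values of 16 2-colour arrays; the deposited LogRatio is log10 of red over green, and the authors' series table holds log2 ratios, here found to be centred per probe (correlation of at least 0.998 with each array's own ratio). The files were analysed in R 4.3.3 with limma 3.58.1: mean signals were corrected by normexp (offset 50) and normalized by loess within arrays, with control spots at weight 0 and outlier spots left out. Probes with a heart signal well above background on 4 or more arrays and with at least 15 values were kept, the brightest of each gene, giving 11058 features. limma (trend, all 16 arrays in 1 model) tested 5 comparisons with Benjamini-Hochberg adjustment over all features at 0.05. In this text "rose" and "fell" mean an adjusted p under 0.05, and SE is that of the model. The array files gave 47 altered gene names in 4 files, replaced by those of the other files.

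Genes were named by rule: up to 8 with the largest called rise and fall in each comparison, all with a called difference of responses, and up to 4 each way in other lists. Mrpl12, Mrps11, Mrpl10, Mrps6 and the divergent neighbours were named after their values were seen. The members and lists were chosen with earlier results of these data known. Rps19bp1 was left out of the cytosolic ribosomal list. Alternatives were median centring, deposited processed log ratios, no background correction, offset 16, other filters, every probe, the series table, no trend, a replicate block, other samples in the fit and each array left out. The fit was tested on simulated data. The number of arrays limits the precision.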

Additional observations from a re-analysis of the deposited data

Results flagged for a closer look

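The banding response differed between genotypes for 7 genes by the model's own test of that difference: Mrps28 (-0.50), Mrpl23 (-0.46), Mrps35 (-0.42), Mrpl3 (-0.38), Mrps14 (-0.38), Mrps18c (-0.32) and Mrpl44 (-0.31, with 0.04 and -0.03 for its other 2 probes), each on the log2 scale as CHIP(-/-) minus wild type.

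Among 116 sets of 4 arrays, 3 held a sample far from the others, 2.59% where chance gives about 1 in 20. Mrpl52 read 0.31 in CHIP(-/-) sham replicate 4 and 0.06 to 0.09 in the other 3. Mrps9 read 0.24 in CHIP(-/-) TAB replicate 3 and 0.48 to 0.51 in the others. Mrps14 read 1.19 in wild-type sham replicate 3, where the others were at 1.24.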

How the results depend on the processing

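Limits: dyes were not swapped, no slide held more than 1 group, and 4 hearts a group set the precision. Of the alternatives, median centring in place of loess changed most; its cause was not tested beyond the shift of all features given above. With it, 0 genes rose and 48 fell with TAB in wild type (64.9%, where 36.4% of all features fell), and 0 rose and 68 fell in CHIP(-/-) hearts (91.9%, against 45.2%). The large and small subunit medians were -0.3475 and -0.3694 in wild type and -0.5892 and -0.5817 in CHIP(-/-) hearts. Between genotypes they were 0.0794 and 0.0873 after sham and -0.1579 and -0.1523 after TAB. By limma 0 genes were called between genotypes after TAB and 0 for the difference of responses, with 12 lower in each at an unadjusted p under 0.05. Named genes that changed sign were, in wild type, Mrpl54 (-0.0716), Mrpl33 (-0.2469), Mrpl17 (-0.0453), Mrps16 (-0.2238) and Mrpl23 (-0.2341), and in CHIP(-/-) hearts Mrpl52 (-0.1632), Mrpl20 (-0.2191), Mrpl54 (-0.191) and Mrps34 (-0.3272).

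For the other alternatives the cause was likewise not tested. The deposited processed log ratios gave 15 lower genes in CHIP(-/-) hearts after TAB and 4 with a lower response. Offset 16 gave 4 wild-type rises. No filter on dim probes gave 2 lower responses, and so did no intensity trend (2). Every probe on its own gave 35 wild-type falls and a large subunit median of -0.1261. The authors' series table gave a small subunit median of -0.364 in CHIP(-/-) hearts and 4 lower responses. A fit of the compared groups alone gave 8 lower genes after TAB. Of the alternatives added after seeing the data, leaving out the 3 arrays with high Myl7 gave 4 rises and 7 falls in wild type (9.46% falls, against 10.4% of all features) and 3 lower responses. Leaving out the 3 arrays with Y-linked transcripts gave 1 lower response and sham medians of -0.026 and -0.0403 for the large and small subunit, and position on the slide as a block gave 4 lower responses.

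With the replicate number as a block (replicate block), 3 genes had a lower response, 43 fell in CHIP(-/-) and 19 in wild-type hearts. After each gene's group mean was taken off, arrays with the same number in other groups correlated at -0.185 to 0.183. These values gave no sign that the numbers pair the hearts. Omitting 1 array at a time gave 13 to 23 wild-type falls and 5 to 9 rises, 40 to 45 falls and 3 to 4 rises in CHIP(-/-) hearts, 5 to 29 lower genes after TAB and 2 to 13 lower responses.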
